A study of Mus musculus with 12 samples.

Results

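The region described here is a stretch of mouse chromosome 5 that holds Rhoh and Chrna9, together with the 400 kb on either side of it, in ATAC-seq libraries of CD4+ T cells. It was picked for its genotype difference averaged over both treatments: a run of neighbouring peaks, from position 65844768 to 66004802 (mm10, the build used throughout), in which every tested peak was lower on average in cells whose glucocorticoid receptor gene was conditionally knocked out. Of the 222105 peaks in the joint peak set, 222 fell in the region, 62 of them in the interval of 160.035 kb and 160 in the flanks. After the filter on low counts, 57 interval peaks and 150 flank peaks (62 below and 88 above the interval) entered the tests, and 15 were too weak, 5 of these in the interval.

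The 12 libraries formed 4 sets of 3, and each came from 6000 sorted cells. The cells were naive CD4+ T cells of spleen and draining lymph node, taken from C57/B6 mice and cultured towards the homeostatic Th17 state, a helper T cell state of barrier tissues. They carried either a conditional knockout of the glucocorticoid receptor (GR cKO, here cKO) or no knockout (WT), and were kept for 2 days with the synthetic glucocorticoid dexamethasone (Dex) or without it (control). The cKO Dex, cKO control, WT Dex and WT control sets thus differ by receptor genotype, by Dex or by both, and nothing in the labels says which Cre line was used or whether the 3 libraries of a set came from separate animals.

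ATAC-seq counts the sites at which a transposase can insert into chromatin, so a peak marks DNA that is open in the cells sampled. The glucocorticoid receptor is a ligand-bound transcription factor that can open or close chromatin at the sites it binds. Rhoh encodes a small GTPase of blood cells that binds GTP without hydrolysing it and is needed for signalling by the T cell receptor, while Chrna9 encodes a subunit of nicotinic acetylcholine receptors best known from the hair cells of the inner ear. The interval also holds the long non-coding RNA genes Gm3521, Gm32474, Gm32556, 4930480C01Rik and 9130230L23Rik. Below it lie Smim14, Ube2k (a ubiquitin-conjugating enzyme), Pds5a (a regulator of cohesin) and N4bp2, and above it Rbm47 (an RNA-binding protein), Nsun7 and Apbb2 (an adaptor of the amyloid precursor protein).

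Promoter windows of RefSeq (GRCm38.p6, from 250 bases before to 50 bases after a transcript start) show what lies under the peaks. Of 26 windows in the region, 19 overlapped a peak. The Rhoh window at chr5:65863334-65863633 (plus strand) lay wholly inside a peak that was lower in cKO and held 9 CG dinucleotides, given in capitals here and in the next windows.
Rhoh: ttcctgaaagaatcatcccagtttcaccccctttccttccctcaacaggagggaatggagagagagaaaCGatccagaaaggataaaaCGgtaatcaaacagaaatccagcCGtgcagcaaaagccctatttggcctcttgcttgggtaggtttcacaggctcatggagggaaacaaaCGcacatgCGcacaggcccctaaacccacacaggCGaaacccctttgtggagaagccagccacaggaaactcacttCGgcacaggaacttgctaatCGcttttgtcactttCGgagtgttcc
The N4bp2 window at chr5:65763271-65763570 (plus strand), the promoter nearest the interval on its lower side, also lay wholly inside a peak, but held 34 CG dinucleotides.
N4bp2: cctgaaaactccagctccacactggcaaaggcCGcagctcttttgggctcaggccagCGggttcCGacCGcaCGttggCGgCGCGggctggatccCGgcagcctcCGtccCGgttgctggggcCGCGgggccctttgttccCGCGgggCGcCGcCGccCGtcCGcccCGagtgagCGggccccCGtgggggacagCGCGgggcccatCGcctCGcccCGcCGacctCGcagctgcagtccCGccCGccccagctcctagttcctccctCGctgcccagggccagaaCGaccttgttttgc
The Chrna9 window at chr5:65966874-65967173 (plus strand) held 6 CG dinucleotides and no peak. The gene's annotated span starts at a lower position, 65934854, where no window was read.
Chrna9: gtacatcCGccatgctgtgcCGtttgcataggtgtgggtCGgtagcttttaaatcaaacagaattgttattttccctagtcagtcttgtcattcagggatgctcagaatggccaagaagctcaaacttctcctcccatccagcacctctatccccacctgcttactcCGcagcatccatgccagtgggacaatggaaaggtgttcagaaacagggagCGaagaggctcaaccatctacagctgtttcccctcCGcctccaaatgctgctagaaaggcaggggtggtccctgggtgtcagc

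Short motifs were looked for on both strands of each window, as a description only. They were the hexamer of the glucocorticoid receptor, AGAACA (in 19.0% of all 32851 promoter windows of the table), the palindromic full site of that receptor (0.00913%), which contains the hexamer on each strand, the AP-1 motif TGANTCA (7.81%), the RUNX motif TGTGGT (16.8%), the ROR hexamer AGGTCA (16.3%) and the ETS motifs ACTTCCG (6.42%) and GGAAGT (23.8%). The Rhoh, N4bp2 and Chrna9 windows held none of these letters, but some other windows of the region did. A Smim14 window (chr5:65484012-65484311), inside a peak, held the receptor hexamer on each strand and 1 AP-1 match. The window of the non-coding Gm40310, above the interval, held 1 receptor hexamer. In the interval, a Gm32556 window held 1 RUNX and 1 ROR match. Further windows of Smim14, Rbm47 and the non-coding Gm26725 held RUNX, ROR, AP-1 or ETS matches. The window of 4930480C01Rik, a non-coding gene inside the Chrna9 span, held 1 AP-1 match (in capitals, starting at base 155 of the window) at chr5:65951093-65951392 (plus strand), inside the peak starting at 65950679.
4930480C01Rik: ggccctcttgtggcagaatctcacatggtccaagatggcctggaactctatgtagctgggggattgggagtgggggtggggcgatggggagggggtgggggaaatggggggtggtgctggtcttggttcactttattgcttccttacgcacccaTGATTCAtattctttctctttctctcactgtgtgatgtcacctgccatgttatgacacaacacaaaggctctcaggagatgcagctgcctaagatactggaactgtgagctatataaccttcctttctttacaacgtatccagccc
That peak had 7.40, 7.24 and 6.55 CPM (counts scaled to library size) in the cKO Dex libraries, 7.02, 6.47 and 5.61 CPM in cKO control, 14.9, 16.4 and 12.9 CPM in the WT Dex libraries and 14.2, 12.1 and 14.4 CPM in WT control. Every cKO library was below every WT library.

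As a check of the cells, all 8 T cell genes and all 8 Th17 genes looked at had a peak above 10 CPM, whereas 1 of 6 B cell, 3 of 6 myeloid, 3 of 5 CD8 T or NK and 1 of 3 erythroid genes had one. Peak counts per library ran from 12988437 to 25081591, and the strongest 10% of tested peaks took up between 57.9% and 61.6% of counts in cKO libraries and between 60.6% and 63.5% in WT libraries. The part of that difference in the results below was not tested, apart from the values given beside them. Nr3c1, which encodes the receptor, had 24 tested peaks, which summed to between 96.3 and 120 CPM in cKO libraries and between 102 and 127 CPM in WT libraries. edgeR called none of them for genotype over both treatments (5 had an unadjusted p under 0.05), and since no label says which part of the gene is deleted, this neither checks nor contradicts the genotype labels.

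Each library gives a measure of the interval that needs no scaling between libraries, its share of all counts in the interval and its flanks. That share was 21.3%, 21.8% and 20.7% in the cKO Dex libraries, 20.8%, 21.5% and 21.6% in cKO control, 33.4%, 33.7% and 34.1% in WT Dex and 34.5%, 33.5% and 34.5% in WT control. The 6 cKO libraries stood together and well below the 6 WT libraries, and neither genotype split by treatment. The widest exact 95% Clopper-Pearson interval of one cKO library was 20.9% to 22.4% and of one WT library 33.7% to 35.3%. These intervals cover counting error only, and since the interval was chosen on this difference nothing is read from the gap.

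Summed over its 62 peaks, the interval held 196, 202 and 167 CPM in cKO Dex and 168, 187 and 176 CPM in cKO control, against 358, 369 and 344 CPM in the WT Dex libraries and 345, 356 and 364 CPM in WT control. The cKO sums averaged 183 ± 14.6 CPM and the WT sums 356 ± 10.1 CPM (SD, n = 6 each), a fold of 0.512. Divided by the flanks of the same library, the fold was 0.526. Since the interval was chosen on this difference, these genotype values are a description and carry no test. In bulk cells, fewer cells with an open site and less opening in each cell cannot be told apart. DNA copy number and genomic input were not analysed here, so a level is one of counts and not of opening per copy of DNA, and a difference in DNA content between the genotypes cannot be told apart from one in opening.

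**Figure D1:**
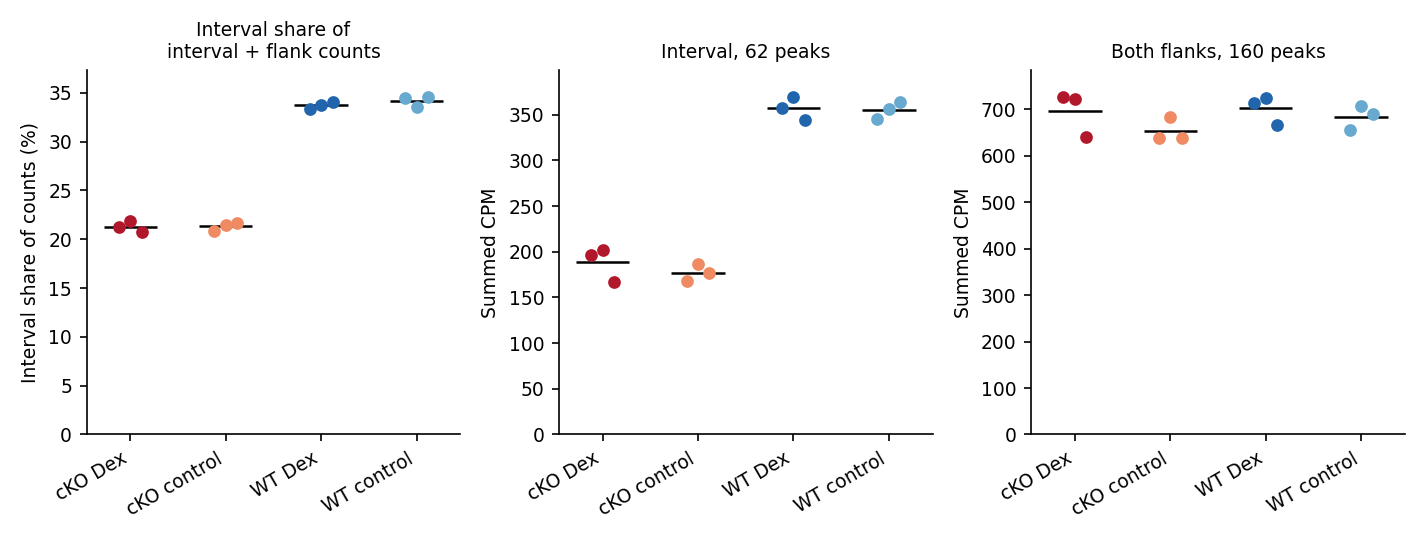
Interval share of the counts in the interval and flanks (left, percent), summed CPM of the 62 interval peaks (middle) and summed CPM of the 160 flank peaks (right) in each library; points are the 3 libraries of a group and bars their mean. The cKO libraries lie between 20.7% and 21.8% on the left and the WT libraries between 33.4% and 34.5%, while the flank sums of both genotypes overlap.

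The lower level was spread over the interval peak by peak. The median log2 fold change, cKO over WT and averaged over treatments, was -0.90 over the 57 tested peaks, a ratio of 0.535, and the middle 50% of ratios ran from 0.477 to 0.612. The median over all 202587 tested peaks was 0.02. The interval's values ran from -1.68 to -0.10 with an SD of 0.29, beside a median standard error (SE) of 0.24 for one peak, and 52 of the 57 lay within 2 SE of the interval's median.

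The 17 interval peaks with a mean of 5 CPM or more had a median log2 of -1.0 and every one of them was lower in all 6 cKO libraries than in all 6 WT libraries. Of all 57, 26 did not overlap between genotypes in that direction, as did 0.363% of all tested peaks. At an edgeR adjusted p under 0.05, the threshold for "called" here, 27 were called lower in cKO over both treatments (0.265% of all tested peaks), 17 in control cells (0.00938%) and 14 in Dex-treated cells (0.13%). These counts follow from how the interval was chosen and nothing is read from them.

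By level and by place, the medians stayed between -1.0 and -0.81. In groups of 19 by mean level, the strongest interval peaks had a median log2 of -1.0, the middle group -0.82 and the weakest group -0.88, and the SE of one peak widened in the same order, from a median of 0.11 to 0.24 and 0.36. By position, the medians were -0.81 for the 6 peaks below Rhoh, -0.97 for the 15 within Rhoh, -0.90 for the 17 between Rhoh and Chrna9, -0.87 for the 14 within Chrna9 and -0.88 for the 5 above it. The summed levels of 4 equal stretches of the interval, in order, had ratios of 0.499, 0.552, 0.514 and 0.500 (cKO over WT).

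**Figure D2:**
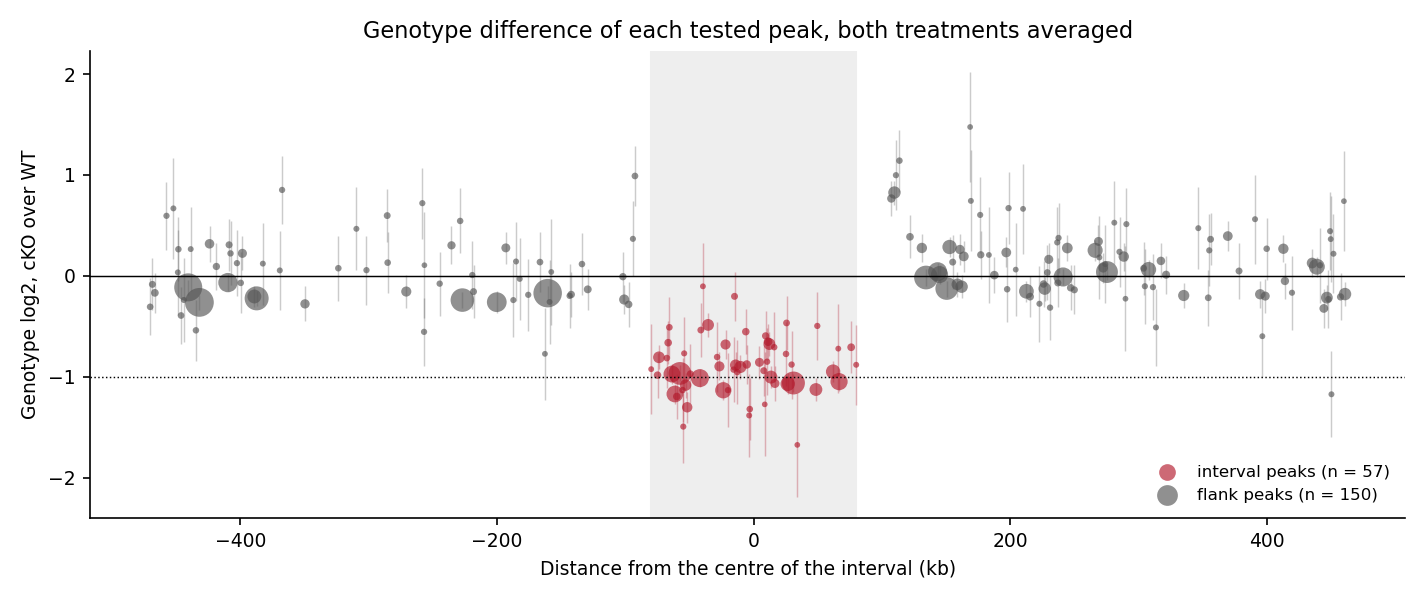
Genotype log2 fold change (cKO over WT, averaged over treatments) of each tested peak against its distance from the centre of the interval in kb; bars are 1 SE, point area grows with mean level, shading marks the interval and the dotted line a log2 of -1. All 57 interval peaks lie below 0, from -1.68 to -0.10, and the flank peaks have a median of 0.06.

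Rhoh held 15 tested peaks within its span, and the one over its promoter (65862850 to 65863924) had the lowest log2 of the 17 interval peaks with a mean of 5 CPM or more. It had 9.68, 9.99 and 9.72 CPM in the cKO Dex libraries and 7.32, 8.09 and 9.36 CPM in cKO control, against 22.9, 21.7 and 17.3 CPM in the WT Dex libraries and 18.6, 22.1 and 18.8 CPM in WT control. The highest cKO library was far below the lowest WT library, and the log2 was -1.17 ± 0.09 (SE, n = 6 per genotype). Among the 29282 tested peaks of the whole set with a mean of 5 to 20 CPM, no other had a log2 as low. The interval was chosen on this value, so nothing is read from the rank.

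The peak at the 5' end of the Rhoh span (65860305 to 65861862) had 11.9, 10.7 and 9.30 CPM in cKO Dex, 7.26, 11.3 and 9.55 CPM in cKO control, 19.7, 18.1 and 18.7 CPM in the WT Dex libraries and 19.5, 18.1 and 23.8 CPM in WT control. The strongest peak of the gene (65866277 to 65868293), behind its promoter, had 21.6, 20.6 and 16.9 CPM in cKO Dex, 17.9, 21.1 and 16.5 CPM in cKO control, 37.6, 36.2 and 36.3 CPM in the WT Dex libraries and 40.9, 36.6 and 37.5 CPM in WT control. Farther into the gene, the peak from 65882539 to 65883223 had 12.6, 13.0 and 10.3 CPM in cKO Dex, 10.6, 11.01 and 10.97 CPM in cKO control, 23.4, 24.8 and 21.2 CPM in the WT Dex libraries and 21.9, 22.5 and 24.3 CPM in WT control. All of these peaks were lower in every cKO library than in every WT library, with log2 values of -0.97 ± 0.10, -0.97 ± 0.08 and -1.01 ± 0.09 in that order.

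Within Chrna9 lay the strongest peak of the interval (65955246 to 65956339). Its levels were 20.2, 21.2 and 14.3 CPM in cKO Dex and 16.3, 21.8 and 17.7 CPM in cKO control, against 41.2, 42.1 and 38.8 CPM in the WT Dex libraries and 36.2, 39.3 and 36.2 CPM in WT control. The genotypes were again far apart, with a log2 of -1.06 ± 0.08, the lowest of the 12708 tested peaks with a mean of 20 CPM or more. That rank too rests on the value used to choose the interval, and nothing is read from it. Above the gene, the peak from 65991020 to 65991658 within the non-coding 9130230L23Rik had 10.9, 10.9 and 10.0 CPM in cKO Dex, 10.3, 8.56 and 10.1 CPM in cKO control, 22.9, 21.3 and 19.6 CPM in the WT Dex libraries and 19.3, 21.8 and 20.7 CPM in WT control. It differed between genotypes without overlap, with a log2 of -1.05 ± 0.09.

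The peaks furthest from the interval's median were weak ones. On the low side were the peaks starting at 65958719 within Chrna9 (0.179 CPM on average in cKO and 0.590 CPM in WT, log2 -1.68 ± 0.51), at 65869781 within Rhoh (0.359 CPM in cKO and 1.06 CPM in WT, -1.49 ± 0.36) and at 65921186 between the genes (0.308 CPM in cKO and 0.787 CPM in WT, -1.38 ± 0.41). On the other side were those starting at 65885145 within Rhoh (0.457 CPM in cKO and 0.507 CPM in WT, -0.10 ± 0.43), at 65909744 between the genes (1.21 CPM in cKO and 1.39 CPM in WT, -0.20 ± 0.25) and at 65950283 within Chrna9 (0.988 CPM in cKO and 1.38 CPM in WT, -0.47 ± 0.26). The 2 peaks nearest to equal changed sign under an alternative given with the processing below. The 5 untested interval peaks, all under 0.5 CPM on average, were each lower in cKO, with summed means of 1.59 CPM in cKO and 2.17 CPM in WT, a ratio of 0.729.

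**Figure D3:**
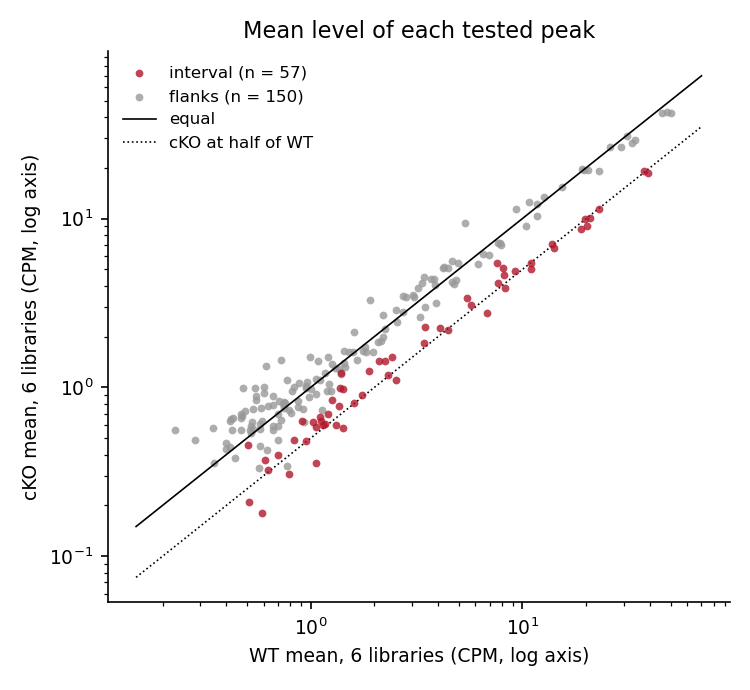
Mean CPM over the 6 cKO libraries (vertical, log axis) against that over the 6 WT libraries (horizontal, log axis) for each tested peak; the solid line marks equal levels and the dotted line a ratio of 0.5. Interval peaks follow the dotted line from 0.5 CPM to the strongest at 18.6 CPM in cKO and 39.0 CPM in WT, and flank peaks follow the solid line.

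At the lower end of the interval, the outermost tested peaks lie within the non-coding gene Gm3521. The first, starting at 65844768, averaged 0.323 CPM in cKO and 0.632 CPM in WT (log2 -0.93 ± 0.44). The second, starting at 65849489, had 1.14, 2.02 and 1.11 CPM in cKO Dex and 0.900, 1.25 and 0.710 CPM in cKO control, against 1.89, 2.51 and 2.72 CPM in the WT Dex libraries and 2.06, 2.37 and 2.39 CPM in WT control. One cKO Dex library reached into the WT range there, and the log2 was -0.98 ± 0.22. Just outside, 12.3 kb below the interval, the peak starting at 65832029 averaged 1.45 CPM in cKO and 0.728 CPM in WT, a log2 of 0.99 ± 0.30. That peak ended the run, so its sign was fixed by the choice of the interval.

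At the upper end, the second peak from the edge (starting at 66000601) averaged 1.51 CPM in cKO and 2.42 CPM in WT (log2 -0.71 ± 0.26), with 1 WT control library at 0.610 CPM below all 6 cKO libraries. The outermost, starting at 66004599, averaged 0.397 CPM in cKO and 0.702 CPM in WT (-0.88 ± 0.40). An untested weak peak 3.66 kb above the interval, starting at 66008462, was also lower, with 0.141 CPM in cKO and 0.511 CPM in WT, and the tested peaks resumed 27.1 kb above the interval, inside Rbm47. The end of the run is therefore placed only to within the space between tested peaks.

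The flanks were tested, since only their first peak on each side bore on the choice. Averaged over treatments, the 150 tested flank peaks had a median log2 of 0.06, and 2 of them, both within Rbm47, were called higher in cKO, beside 0.0375% of all tested peaks. None was called lower, and 21 of the 150 had an unadjusted p under 0.05. The share of all tested peaks with an unadjusted p under 0.05 is not given here. Nothing is therefore read from this count or from the like counts elsewhere in the text. In DESeq2, in which 122 of the 150 had no adjusted p, 4 were called, 3 of them lower. Over all 202587 tested peaks, DESeq2 called 3389 lower and 162 higher, against 536 and 76 in edgeR. Nothing is read from its 4 flank calls.

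The stronger of the called Rbm47 peaks (66034044 to 66034984, 29.2 kb above the interval) had 10.1, 11.8 and 7.08 CPM in cKO Dex and 8.64, 10.3 and 8.71 CPM in cKO control, against 5.55, 5.52 and 4.65 CPM in the WT Dex libraries and 5.03, 5.72 and 5.53 CPM in WT control. Every cKO library was above every WT library, as was the case at 0.225% of all tested peaks, and the log2 was 0.83 ± 0.12 (edgeR adjusted p = 2.32e-05). It was called in each of the 12 fits that left out 1 library. The weaker (66031939 to 66032269) had 3.54, 3.36 and 3.43 CPM in cKO Dex, 3.06, 3.44 and 2.84 CPM in cKO control, 1.51, 1.56 and 2.098 CPM in the WT Dex libraries and 1.60, 2.32 and 2.39 CPM in WT control. It too did not overlap, with a log2 of 0.77 ± 0.18 (edgeR adjusted p = 0.0312), but it ended the run, so its sign was set by the choice of the interval, and its call was lost in 10 of the 12 fits without 1 library.

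**Figure D4:**
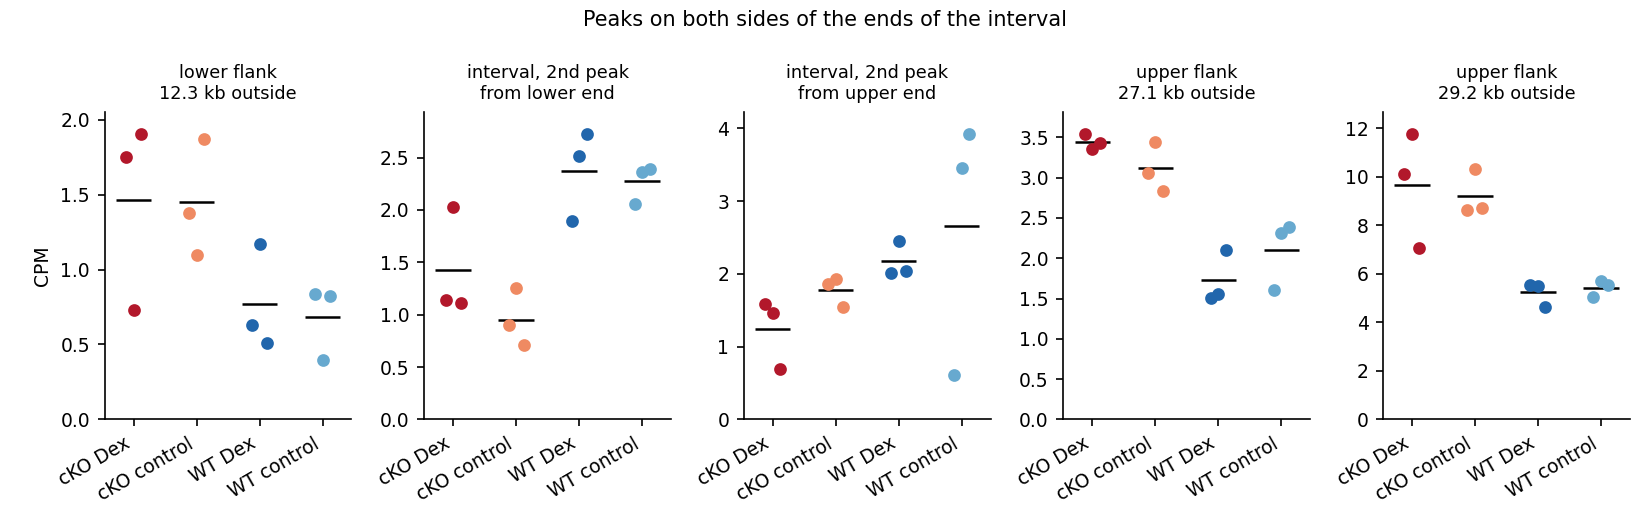
CPM in each library at 5 peaks at the ends of the interval, from the lower flank on the left to the upper flank on the right; points are libraries and bars group means. The second peak from each end of the interval is lower on average in cKO, and the Rbm47 peaks 27.1 and 29.2 kb outside are higher in all 6 cKO libraries.

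The next 3 tested peaks of Rbm47 also had positive log2 values, 1.00 ± 0.35, 1.14 ± 0.31 and 0.39 ± 0.21, and none was called. The 5 together, a set put together after their values were seen, had a median log2 of 0.83, a ratio of 1.77. In bins of 50 kb, the summed level of the first bin of the upper flank was 17.3 CPM in cKO (14.8 to 19.9 CPM over the 6 libraries) and 10.5 CPM in WT (9.23 to 12.1 CPM), a ratio of 1.65, with 1.55 in control and 1.76 in Dex-treated cells. The other 15 bins of the flanks had ratios between 0.870 and 1.24. Farther into Rbm47, its strongest peak (66058843 to 66059381, 54.0 kb outside) averaged 30.8 CPM in cKO and 31.2 CPM in WT, a log2 of -0.02 ± 0.08.

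In control cells alone no flank peak was called by edgeR for genotype, beside 0.000987% of all tested peaks called higher in cKO and 0.00938% called lower, and 13 of 150 had an unadjusted p under 0.05. Neither limma-voom nor DESeq2 called one, but 142 of the 150 peaks had no adjusted p in DESeq2, so no call could be made on them there. The stronger Rbm47 peak came nearest, with a log2 of 0.76 ± 0.17 (edgeR adjusted p = 0.147). In Dex-treated cells 3 flank peaks were called, all higher in cKO, beside 0.04% of all tested peaks. They included the stronger Rbm47 peak (0.89 ± 0.17, edgeR adjusted p = 0.00252) and a peak within Nsun7, a gene of an RNA methyltransferase family (66294158 to 66294561, 0.92 ± 0.22, edgeR adjusted p = 0.0465). The other was a peak over the transcript start of the non-coding 1700126H18Rik, a gene on the minus strand (66190505 to 66191375, 0.62 ± 0.15, edgeR adjusted p = 0.0470). The Nsun7 peak had 5.57, 4.65 and 4.86 CPM in cKO Dex and 2.40, 2.73 and 2.84 CPM in WT Dex, without overlap. The share of all tested peaks separated in this way is not given here, so nothing is read from it. In control cells the genotypes overlapped at this peak, with 4.50, 2.97 and 4.39 CPM in cKO and 2.82, 5.03 and 4.78 CPM in WT. The log2 there was -0.13 ± 0.21. The call of the Nsun7 peak in Dex-treated cells was lost in 8 of the 12 fits without 1 library, and that of the 1700126H18Rik peak in 7.

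The promoter peaks of the genes below the interval had log2 values between -0.26 and -0.17. The strongest peak of N4bp2, over its promoter, averaged 42.6 CPM in cKO and 48.0 CPM in WT (log2 -0.17 ± 0.07), that of Smim14 42.1 CPM in cKO and 50.4 CPM in WT (-0.26 ± 0.07), that of Ube2k 29.2 CPM in cKO and 34.2 CPM in WT (-0.22 ± 0.08) and that of Pds5a 27.9 CPM in cKO and 33.0 CPM in WT (-0.24 ± 0.08). None was called by edgeR, with adjusted p-values between 0.0963 and 0.347, while DESeq2 called those of Smim14, Ube2k and Pds5a lower. Of all 202587 tested peaks, DESeq2 called 3389 lower and edgeR 536. The median log2 of all 12708 tested peaks with a mean of 20 CPM or more was -0.14, and that of the 86250 with a mean under 1 CPM was 0.12. The promoter values were closer to 0 in fits that took the strength of peaks into account. With loess offsets, which scale by level, they were -0.03 at N4bp2, -0.11 at Smim14, -0.10 at Ube2k and -0.12 at Pds5a. With each library's share of counts in strong peaks as a covariate, a fit added after the data were seen, they were -0.01 at N4bp2, -0.09 at Smim14, -0.11 at Ube2k and -0.13 at Pds5a. None was called in either fit. The share of counts in strong peaks itself averaged 59.6% in cKO and 61.9% in WT libraries. As a covariate it therefore cannot be fully told apart from genotype, and the cause of these shifts was not tested.

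Summed over all its peaks, the lower flank held 321, 329 and 292 CPM in cKO Dex and 284, 305 and 289 CPM in cKO control, against 350, 363 and 315 CPM in the WT Dex libraries and 322, 338 and 323 CPM in WT control. The genotypes overlapped, with a log2 of -0.14 (two-sided exact permutation test within treatments, p = 0.015, where the smallest p these 400 arrangements allow is 0.005). The upper flank averaged 371 ± 24.0 CPM in cKO and 358 ± 13.7 CPM in WT (SD, n = 6 each), a log2 of 0.05 (exact permutation p = 0.26), and both flanks together had a log2 of -0.04 (exact permutation p = 0.34). When each peak counted equally, as a mean of log2 values, the lower flank stood at 0.00947 (exact permutation p = 0.765), the upper at 0.077 (exact permutation p = 0.02) and both together at 0.0479 (exact permutation p = 0.04). Scaled by total counts, the lower flank was -0.07 (exact permutation p = 0.01), the upper 0.128 (exact permutation p = 0.005) and both together 0.0369 (exact permutation p = 0.035). A mean of log2 values also depends on how low levels enter the log2. The direction of the flanks thus depended on the scaling and on how peaks were combined.

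Dex asked a question that the choice of the interval did not use: whether the level of these peaks moves with the hormone where the receptor is present. In WT cells no interval peak was called for Dex by edgeR, beside 0.534% of all tested peaks, and 4 of 57 had an unadjusted p under 0.05. Neither limma-voom nor DESeq2, in which 27 of the 57 had no adjusted p, called any there. The 17 peaks of 5 CPM or more had Dex log2 values between -0.31 and 0.37 in WT, and the one with the smallest unadjusted p, starting at 65937996 within Chrna9, had 0.37 ± 0.15 (edgeR adjusted p = 0.420). At the Rhoh promoter peak the Dex log2 was 0.05 ± 0.13 in WT, and at the strongest Chrna9 peak 0.13 ± 0.12.

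In cKO cells no interval peak was called for Dex either, beside 0.00296% of all tested peaks, and 3 of 57 had an unadjusted p under 0.05. The same 17 peaks had Dex log2 values between -0.08 and 0.38, with 0.25 ± 0.14 at the Rhoh promoter peak and -0.01 ± 0.12 at the strongest Chrna9 peak. The difference between the Dex effects (cKO minus WT) was called at no interval peak, beside 0.0276% of all tested peaks, and again 3 of 57 had an unadjusted p under 0.05. DESeq2, in which 28 to 32 of the 57 interval peaks and 89 to 94 of the 150 flank peaks had no adjusted p, and limma-voom called none for Dex in cKO or for the difference in the whole region.

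The interval sum averaged 189 ± 18.5 CPM in cKO Dex and 177 ± 9.68 CPM in cKO control, a log2 of 0.09 (exact permutation p = 0.5), and 357 ± 12.6 CPM in the WT Dex libraries and 355 ± 9.71 CPM in WT control, a log2 of 0.01 (exact permutation p = 0.8; SD, n = 3 each). With 3 libraries against 3 the smallest p is 0.1. The difference between these Dex effects was 0.08 on the log2 scale (exact permutation p = 0.44). As a ratio to the flanks of the same library, the Dex log2 was -0.002 in cKO (exact permutation p = 1) and -0.03 in WT (exact permutation p = 0.3), and leaving out any 1 library kept it between -0.03 and 0.02 in cKO and between -0.05 and -0.02 in WT.

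**Figure D5:**
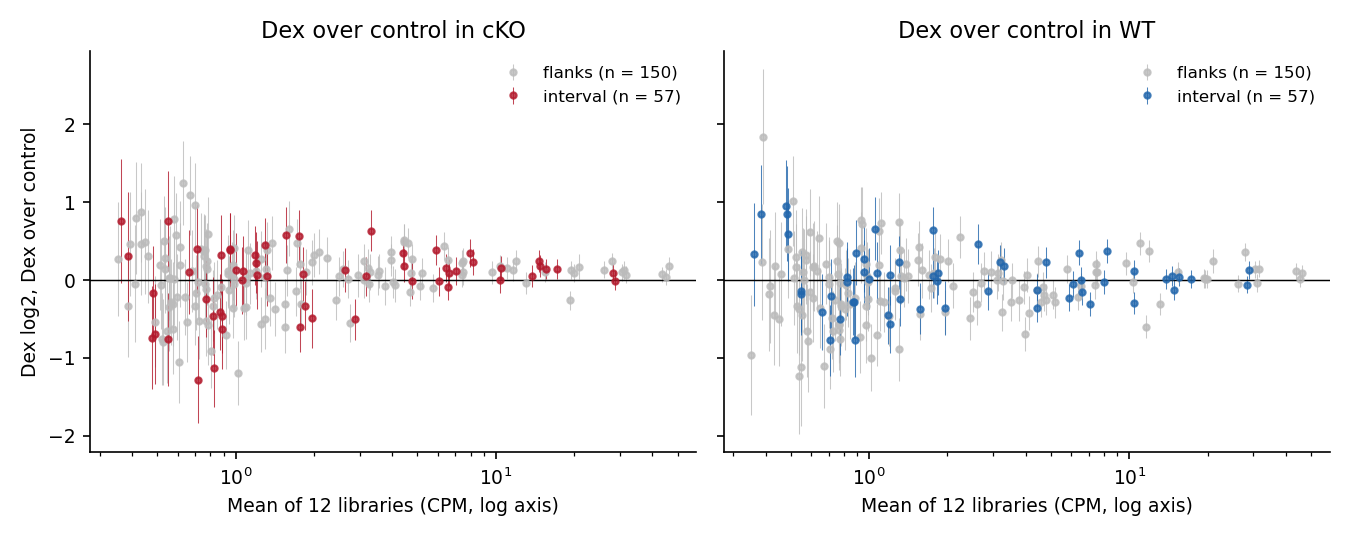
Dex log2 fold change (Dex over control) of each tested peak in cKO (left) and WT (right) against its mean CPM over 12 libraries (log axis); bars are 1 SE. Interval peaks of 5 CPM or more lie between -0.08 and 0.38 in cKO and between -0.31 and 0.37 in WT, and weaker peaks spread wider in both genotypes.

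In the flanks 1 peak was called for Dex in WT, the 1700126H18Rik peak, 186 kb above the interval, which overlaps that gene's RefSeq promoter window by 90 bases. Its levels were 8.32, 8.26 and 9.13 CPM in the WT Dex libraries, against 12.1, 11.975 and 14.7 CPM in WT control, with no overlap and a log2 of -0.60 ± 0.15 (edgeR adjusted p = 0.0328). In cKO it had 15.8, 13.0 and 10.5 CPM with Dex and 11.8, 13.5 and 10.7 CPM without, and there the groups overlapped, with a log2 of 0.13 ± 0.14 (edgeR adjusted p = 0.933). The difference between these effects was 0.73 ± 0.20 and was not called (edgeR adjusted p = 0.415). Its call in WT was lost in 5 of the 12 fits without 1 library.

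No flank peak was called for Dex in cKO or for the difference between Dex effects, with 11 and 6 of the 150 at an unadjusted p under 0.05 in edgeR. The smallest p for Dex in cKO in the region belonged to a peak within Pds5a (65639401 to 65639605), which averaged 0.661 CPM in cKO Dex and 1.50 CPM in cKO control, a log2 of -1.19 ± 0.41 (edgeR adjusted p = 0.837). In WT it averaged 0.632 CPM with Dex and 1.29 CPM without, a log2 of -1.0 ± 0.43 (edgeR adjusted p = 0.491).

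Related genes elsewhere in the genome were read from lists chosen with earlier results known. Among 16 nicotinic receptor subunit genes, 12 had a tested peak. The calls at Chrna9, 11 of its 25 peaks lower in cKO over both treatments, belong to the interval and were fixed by its choice, so nothing is read from them. No peak of the other genes was called, beside 0.265% of all tested peaks called lower and 0.0375% called higher. Chrnb1, the muscle-type beta subunit, had the strongest peak of the rest, at 36.0 CPM in cKO and 40.8 CPM in WT (log2 -0.18).

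Of 25 genes of proximal T cell receptor signalling, where Rhoh acts, 24 had tested peaks, 671 in all. By edgeR none of these peaks was called for genotype over both treatments (0.265% of all tested peaks were called lower and 0.0375% higher) or in control cells (0.00938% lower and 0.000987% higher). In Dex-treated cells 1, at the kinase gene Lck, was called higher in cKO, beside 0.04% of all tested peaks. In cKO none of the 671 was called for Dex by edgeR, beside 0.00296%. These counts are near the shares over all peaks.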

How the data were processed

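The authors deposited 1 table of whole-number counts without normalisation, over 222105 peaks shared by all libraries. The submitters' processing notes name the build mm10 and featureCounts 2.1.1, Genrich 0.6.1, Bowtie2 2.3.5, Trimmomatic 0.39, Picard 2.18.27, deepTools 3.5.6 and SAMtools 1.3. What each did, whether read ends were shifted to the transposase cut, the handling of reads that map to more than 1 place, and whether peaks were called on pooled libraries are not stated there. Libraries were amplified for 16 PCR cycles per the labels' protocols, and PCR copies are not independent molecules.

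Libraries were grouped by their own labels. Peaks were filtered with filterByExpr (minimum count 10, minimum total 15) in edgeR 4.0.16 (R 4.3.3), which kept 202587 peaks. Counts were scaled by TMM and fitted with the robust quasi-likelihood F-test of edgeR over all 12 libraries, with 1 coefficient per group and 8 residual degrees of freedom. Contrasts were Dex in each genotype, the difference between those effects, and genotype averaged over treatments and within each. P-values were adjusted by Benjamini-Hochberg over all tested peaks, and peaks under 0.05 were called. The SE of a log2 fold change is its size over the square root of F. CPM is a count over the TMM-scaled library size, as the cpm function of edgeR gives it. The code was tested on simulated data. Sums, ratios and shares were compared with two-sided exact permutation tests in SciPy 1.17.1.

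The members of the region, the lists and the alternatives were chosen with earlier results of these data known. Peaks named with values are the 6 strongest and the 6 most extreme of the interval, the outermost on both sides of its ends, those called or with the smallest p in each contrast, the strongest of each protein-coding gene, and 2 named in an earlier account; other peaks, such as the one over 4930480C01Rik and the first 5 of Rbm47, were chosen after their values were seen. Some results on lists of related genes are not reported here. A peak was assigned to the gene whose span (GRCm38.p6 table, the build mm10) holds its centre, otherwise to the nearest span within 50 kb. Alternatives were RLE scaling, total counts, loess offsets, TMM without the region, no filter, a filter at a mean of 2 CPM, DESeq2 1.42.0, limma-voom (limma 3.58.1), a replicate block, only the groups compared, each library left out, and, added later, a concentration covariate and the upper flank without its 5 peaks nearest the interval. Libraries of the same number varied together weakly if at all (18 pairs, r between -0.19 and 0.26, median 0.04, 3 of them over 0.1). The 36 pairs of unlike number had r between -0.21 and 0.25, with a median of -0.01. Pairs of replicate 2 were all positive, and those of the other numbers had both signs. The numbers were not used as pairs in the main fit. With a replicate block, genotype calls over both treatments among all tested peaks rose from 536 to 3234 lower in cKO and from 76 to 423 higher. Replicates differed by more than sampling noise (chi-square per degree of freedom 2.01 to 3.61). No peak sequence was read, since no genome was used here; only RefSeq promoter windows are shown. Since no label says that the libraries of a group are separate animals or cultures, p-values reflect only the spread between these libraries.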

Additional observations from a re-analysis of the deposited data

Results flagged for a closer look

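The second tested peak below the interval (65830548 to 65830767, between N4bp2 and the interval, 14 kb outside) moved in opposite directions with Dex in the 2 genotypes. It had 0.854, 0.775 and 1.48 CPM in cKO Dex and 0.3, 0.731 and 0.387 CPM in cKO control, and 0.315, 0.335 and 0.454 CPM in WT Dex and 0.915, 0.542 and 0.948 CPM in WT control. Every cKO Dex library was above every cKO control library, and every WT Dex library below every WT control library. The share of all tested peaks separated in this way is not given here, so nothing is read from it. Neither Dex effect was called, with a log2 of 1.09 ± 0.50 in cKO (edgeR adjusted p = 0.848) and -1.10 ± 0.54 in WT (edgeR adjusted p = 0.585). The difference between the Dex effects, cKO minus WT, was 2.19 ± 0.74 on the log2 scale and was not called (edgeR adjusted p = 0.659). The peak is weak, at under 1.5 CPM in every library.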

How the results depend on the processing

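The median genotype log2 of the interval stayed between -0.97 and -0.83 under every alternative, including scaling factors computed without the region (-0.90), a concentration covariate (-0.84) and each library left out (-0.97 to -0.85). The log2 of the interval sum ran from -0.99 to -0.92 without 1 library and was -0.64 as a mean of log2 values. That mean lies nearer equal levels than the median of the fitted peak values (-0.90). It depends on how low levels enter the log2 as well as on the weight of each peak. Of the 57 tested interval peaks, 33 had a mean under 2 CPM. The log2 of the ratio to the flanks ran from -0.94 to -0.91 without 1 library, and was -0.82 against the lower flank alone and -1.02 against the upper. The log2 of the ratio to a flank is by construction that of the interval sum (-0.97) less that of the flank sum. The latter was -0.14 for the lower flank and 0.05 for the upper. The cause of the other shifts was not tested.

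Counts of calls outside the choice of the interval were small and moved. For genotype over both treatments, the 2 flank calls became 6 under the stricter filter, 4 in DESeq2 (where 122 of 150 peaks had no adjusted p) and 5 with the replicate block, and 1 to 3 without 1 library. Calls over all tested peaks rose too, from 76 higher and 536 lower in cKO to 1203 and 2231 under the stricter filter. That filter tested only 75582 peaks. Calls over all tested peaks were 162 and 3389 in DESeq2, and 423 and 3234 with the replicate block. In control cells, 0 became 1 with total counts, loess offsets, the stricter filter, the replicate block, the concentration covariate or only the groups compared, and 0 to 1 without 1 library. Where 1 was called it was the stronger Rbm47 peak. Over all tested peaks, the main fit called 2 higher and 19 lower there. Calls were 9 and 29 with total counts, 22 and 27 with loess offsets, and 45 and 126 under the stricter filter. They were 18 and 155 with the replicate block, 4 and 15 with the covariate, and 18 and 78 with only the groups compared. In Dex-treated cells, 3 became 1 with RLE scaling, no filter or limma-voom, 5 under the stricter filter and 0 in DESeq2 (where 142 of 150 had no adjusted p), and 0 to 3 without 1 library. Over all tested peaks, the main fit called 81 higher and 264 lower there. Calls were 65 and 243 with RLE scaling, 57 and 238 with no filter, and 68 and 409 in limma-voom. They were 1013 and 1382 under the stricter filter, and 7 and 487 in DESeq2. For Dex in WT, 1 became 4 under the stricter filter, 0 in limma-voom and 2 with the replicate block, and 0 to 1 without 1 library. Over all tested peaks, the main fit called 851 higher and 230 lower with Dex. Calls were 1648 and 1224 under the stricter filter, 855 and 151 in limma-voom, and 1300 and 447 with the replicate block. The difference between Dex effects was called at 0 to 1 peaks without 1 library. Without cKO Dex replicate 3 the 1700126H18Rik peak was called (log2 0.88). In that fit, calls over all tested peaks rose from 1 positive and 55 negative to 21 and 156.

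The flank values changed with how peaks were combined. As a mean of log2 values the lower flank was 0.00947 (exact permutation p = 0.765), the upper 0.077 (p = 0.02) and both 0.0479 (p = 0.04). With total counts the upper was 0.128 (p = 0.005) and both 0.0369 (p = 0.035), again by the exact permutation test. Without 1 library the lower flank ran from -0.17 to -0.12. Without its 5 peaks nearest the interval the upper flank was 0.02 (exact permutation p = 0.565). Those 5 were left out after their positive values were seen, which by itself lowers the result, so nothing is read from this p. Of single peaks, the weak one starting at 65885145 was 0.03 without cKO Dex replicate 2 and 0.28 without WT control replicate 3, with a range of -0.28 to 0.28 over the libraries left out, and that starting at 65909744 was 0.04 with the concentration covariate. For 37 single-peak results, in 786 pairs of a result and a setting, 718 kept their direction and call, 40 lost the call, 18 gained it, 7 moved and 3 changed sign.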
